A study of Mus musculus with 8 samples.

Results

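Interferon-stimulated genes are the genes that cells switch on when interferon, the alarm signal of antiviral defence, binds its receptors. A list of 41 of them was taken by gene symbol from the liver transcript tables of male C57BL/6J mice, and all 41 were found with 1 row each among 55421 transcripts carrying 55304 different symbols. All 41 also passed the filter on low counts, which left 14506 transcripts for testing. The rule that picks their rows uses the gene symbol and no measured value.

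The livers came from 4 groups of 2 mice, sampled at 30 weeks of age at zeitgeber time (ZT, hours after lights on) 6 in the day or 18 in the night. All mice, controls included, had been bought at 4 weeks of age, given 4 weeks to settle and then fed a diet with 45% of its calories from fat. Control mice were gavaged with PBS, the vehicle (cohort of 11), and treated mice with 100 mg per kg of body weight of sudachitin, a plant polymethoxyflavone (cohort of 12), every other day between ZT 8 and 10. Livers of ZT6 and ZT18 therefore also differed in hours since the last gavage, which cannot be told apart from time of day. The labels give no genetic change in any group. The groups are called control ZT6, control ZT18, sudachitin ZT6 and sudachitin ZT18, with mice 1 and 2 in each.

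Type I interferons bind IFNAR1 and IFNAR2, and the kinases JAK1 and TYK2 then activate a complex holding STAT2 and IRF9 that binds the interferon-stimulated response element (ISRE) in the promoters of target genes. Interferon gamma acts mainly on the gamma-activated site (GAS), and IRF1, IRF7 and the RNA sensors feed back on interferon production. In liver both hepatocytes and resident macrophages (Kupffer cells) respond to interferon.

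Promoters of some members named in the comparisons below are shown first, because the response element is found in many such targets. All those shown hold a match to it. Irf1, Irf7, Irf9, Ifit2, Ifi35, Ifi44, Ifi47, Oasl1, Oasl2 and Xaf1, which are also named below, hold no match to it and are not shown. RefSeq promoter sequences of build GRCm38.p6, which run from 250 bases before to 50 bases after the annotated start, were matched by symbol for 32 of the 41 members. Mx1, Usp18, Parp14, Oas2, Zbp1, Ifi27, Dhx58, Iigp1 and Mx2 had no entry. For 25 of the 32, the last bases of the promoter were found in the gene's own transcript in GENCODE release M21. Each sequence is written 5′ to 3′ on the gene's strand, with matches to the ISRE core GAAANNGAAA, on either strand, in capitals. A match on the other strand reads TTTC, any 2 bases, TTTC. The promoters of Apol9a and Apol9b, the members with the smallest p for sudachitin against control at ZT6, lay at chr15:77411031-77411330 on the minus strand and chr15:77728822-77729121 on the plus strand.
Apol9a: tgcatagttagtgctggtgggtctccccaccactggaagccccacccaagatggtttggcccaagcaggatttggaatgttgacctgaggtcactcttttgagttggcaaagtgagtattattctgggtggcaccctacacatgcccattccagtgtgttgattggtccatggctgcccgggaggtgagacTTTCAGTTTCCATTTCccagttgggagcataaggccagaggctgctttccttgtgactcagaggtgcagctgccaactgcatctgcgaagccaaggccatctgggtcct
Apol9b: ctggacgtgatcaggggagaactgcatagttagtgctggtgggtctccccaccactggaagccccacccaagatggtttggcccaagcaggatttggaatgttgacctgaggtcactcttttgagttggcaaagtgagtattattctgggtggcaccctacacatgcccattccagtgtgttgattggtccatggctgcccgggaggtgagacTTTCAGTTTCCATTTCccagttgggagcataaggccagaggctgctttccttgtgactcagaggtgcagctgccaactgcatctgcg
Ddx58 (chr4:40239776-40240075, minus strand) is shown as a member that fell from day to night, and Ifit1 (chr19:34640639-34640938, plus strand), Isg15 (chr4:156200769-156201068, minus strand) and Igtp (chr11:58199306-58199605, plus strand) as members with large day and night differences in treated livers.
Ddx58: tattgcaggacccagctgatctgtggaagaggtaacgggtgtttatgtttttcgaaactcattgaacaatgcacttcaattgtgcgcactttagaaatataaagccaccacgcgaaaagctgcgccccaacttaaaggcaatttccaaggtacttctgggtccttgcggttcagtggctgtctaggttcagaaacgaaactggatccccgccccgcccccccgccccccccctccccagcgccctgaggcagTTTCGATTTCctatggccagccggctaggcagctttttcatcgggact
Ifit1: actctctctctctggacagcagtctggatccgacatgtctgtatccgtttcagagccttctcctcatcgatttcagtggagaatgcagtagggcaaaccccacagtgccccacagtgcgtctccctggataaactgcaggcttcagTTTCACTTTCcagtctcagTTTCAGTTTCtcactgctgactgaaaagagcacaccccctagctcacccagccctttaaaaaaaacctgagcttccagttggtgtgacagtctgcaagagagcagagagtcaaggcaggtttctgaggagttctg
Isg15: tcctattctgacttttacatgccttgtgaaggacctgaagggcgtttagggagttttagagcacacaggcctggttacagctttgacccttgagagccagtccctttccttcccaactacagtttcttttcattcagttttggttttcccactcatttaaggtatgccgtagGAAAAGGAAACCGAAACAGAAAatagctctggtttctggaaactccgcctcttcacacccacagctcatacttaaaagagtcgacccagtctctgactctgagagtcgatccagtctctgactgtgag
Igtp: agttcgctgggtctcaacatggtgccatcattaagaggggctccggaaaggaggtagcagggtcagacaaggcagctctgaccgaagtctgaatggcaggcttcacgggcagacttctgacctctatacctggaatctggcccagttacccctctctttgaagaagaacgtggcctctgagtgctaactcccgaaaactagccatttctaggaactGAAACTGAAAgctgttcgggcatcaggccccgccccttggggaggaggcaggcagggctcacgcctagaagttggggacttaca

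In Apol9a and Apol9b a pair of overlapping matches formed the same run of capitals, beginning at position -59 and -37 from the start. Isg15 held 3 overlapping matches from position -78, Ifit1 held 2 separate matches at -104 and -85, Igtp had 1 at -34, and the Ddx58 match began at position 2, just after the start. Over the 32 promoters, 22 (68.8%) held the ISRE core, against 1131 of 32851 RefSeq promoters of the same length (3.44%). These 22 are not independent, since they include gene copies with nearly the same promoter, such as Apol9a and Apol9b or Ifit3 and Ifit3b. Irgm2, whose RefSeq start lies far from the start in the deposited tables, is also among them. In 17 of the 22 a match started within the 150 bases before the start. The GAS letters TTCNNNGAA, which read the same on both strands, occurred in 8 of 32 promoters (25%), against 2726 of all promoters (8.3%). A GAS match overlapped an ISRE match in the promoter of Bst2. Irf7, Irf9, Ifi47, Oasl1, Oasl2, Xaf1 and Ifi44 had neither set of letters in these windows, which says only that these letters were not there. The RefSeq start lay within 10 bases of the start in the deposited tables for 17 members and within 100 bases for 31, and for Irgm2 it lay 15359 bases away. A match is a run of letters and not a measured binding site.

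**Figure D1:**
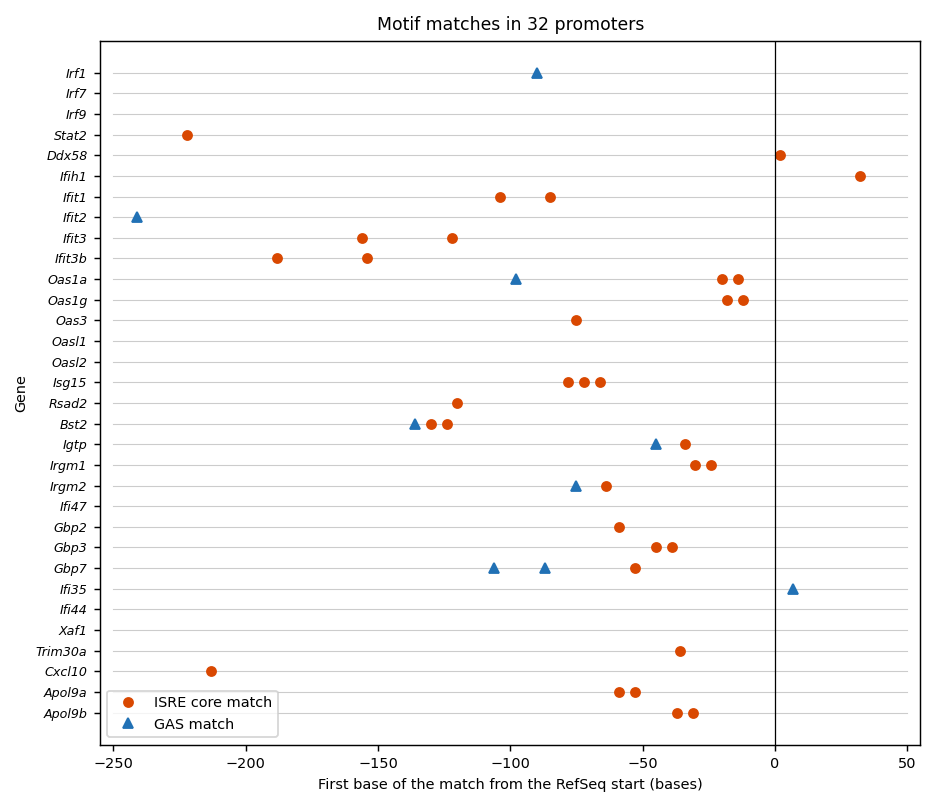
Position of ISRE core matches (orange circles) and GAS matches (blue triangles) in the 32 promoters, as the first base of the match in bases from the RefSeq start (vertical line). Of the 32 promoters, 22 hold an ISRE core match, most of them within 150 bases before the start.

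Libraries held 13914116 to 17759630.5 counts in exons. The labelled tissue matched its markers, since the 9 hepatocyte markers in the table (Alb, Apoa1 and others) summed to between 92346 and 112232 CPM (counts scaled to the size of the library, with TMM factors) in every library. Mouse 1 of control ZT18 stood apart across the whole table, being the highest of the 8 livers for 19.7% and the lowest for 18.6% of all tested transcripts. Results that rest on it are given with and without it. Each title names a mouse, but nothing more is said of litters or cages, so the tests take each liver as independent. The unexplained codes in the titles begin alike for both control ZT6 mice, and alike for both sudachitin ZT6 mice. Within each ZT18 group they begin differently, and no beginning is shared between groups. If a shared beginning marks a cage or litter, the spread within the ZT6 groups could be too small. This was not tested.

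Levels of the members spanned a wide range. Per transcript length, in FPKM (counts scaled to exon length and library total) averaged over the 8 livers, Bst2, which encodes tetherin, a protein that holds budding virus at the cell surface, was highest at 77.4 ± 9.21 (SD over all 8 livers, n = 8). Iigp1, an immunity-related GTPase that attacks the vacuoles of intracellular parasites, followed at 36.0 ± 6.30 FPKM, and Ifi27, an interferon-induced membrane protein, at 35.7 ± 4.24. Iigp1 and Ifi27 did not differ beyond their spread, and both lay far below Bst2. Apol9b reached 22.3 ± 7.33 FPKM, Irgm1 10.1 ± 1.80 and Apol9a 9.69 ± 3.97, of which the last pair overlapped in spread. Ifi35, Igtp, Irf7, Irgm2, Stat2, Irf1 and Irf9 formed a closely spaced run from 7.09 ± 0.687 FPKM for Ifi35 to 5.01 ± 0.917 for Irf9. The lowest levels were those of Oas2 (0.260 ± 0.0842 FPKM), Oas1g (0.134 ± 0.0677), Mx1 (0.112 ± 0.0361) and Oas3 (0.0775 ± 0.0436). Several antiviral genes that are textbook interferon reporters, such as Mx1, an antiviral GTPase, and Oas1g, Oas2 and Oas3, of the family that makes the activator of RNase L, were therefore near the bottom of the range in all 4 groups. In the scale of CPM used below, Mx1 ran from 0.432 CPM in mouse 1 of control ZT6 to 1.17 CPM in mouse 1 of sudachitin ZT6.

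**Figure D2:**
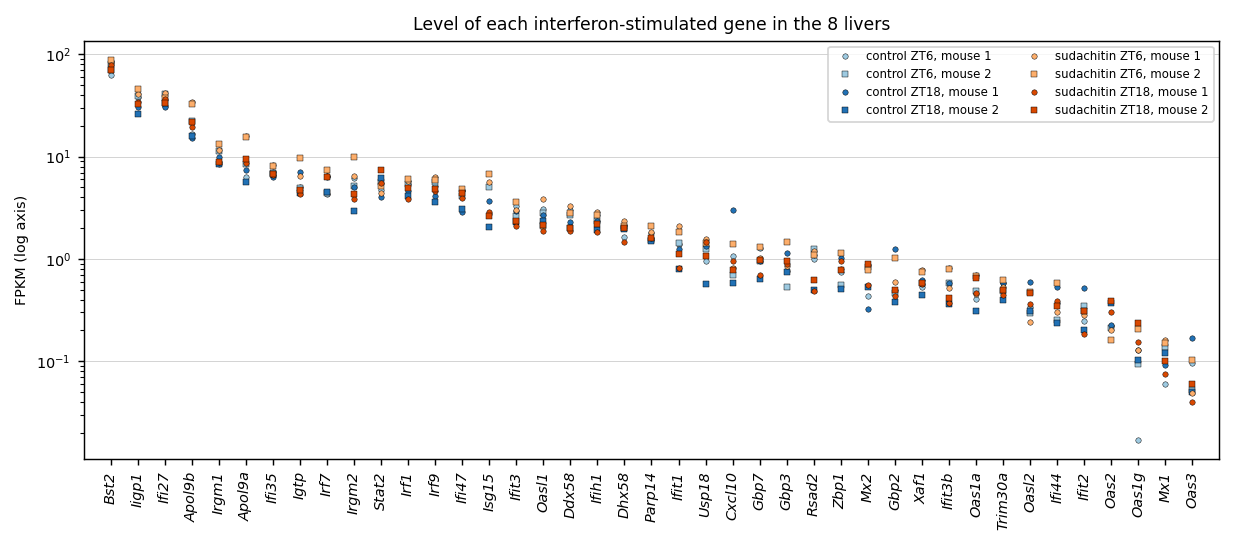
FPKM (log axis) of each of the 41 genes in each of the 8 livers, ordered by the mean; colour gives the group and marker shape the mouse. Bst2 is highest at a mean of 77.4 FPKM and Oas3 lowest at 0.0775 FPKM.

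Across the 8 livers the members were most often highest in the treated livers of the day. Of the 41, 28 had their highest single liver in sudachitin ZT6, where 22.0% of all tested transcripts had theirs, and 31 had their highest group mean there, against 24.0% of all transcripts. The median member lay 0.20 (mouse 1) and 0.33 (mouse 2) above its own mean on the log2 scale in sudachitin ZT6, with 30 and 38 of 41 members above that mean. It lay at -0.17 and -0.02 in control ZT6, at -0.01 and -0.30 in control ZT18 and at -0.08 and 0.01 in sudachitin ZT18. The lowest single liver was most often in control ZT18, for 23 of 41 members (31.6% of all transcripts), and 16 of these were in its mouse 2. The median over all transcripts lay at 0.00 or 0.01 in every liver.

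**Figure D3:**
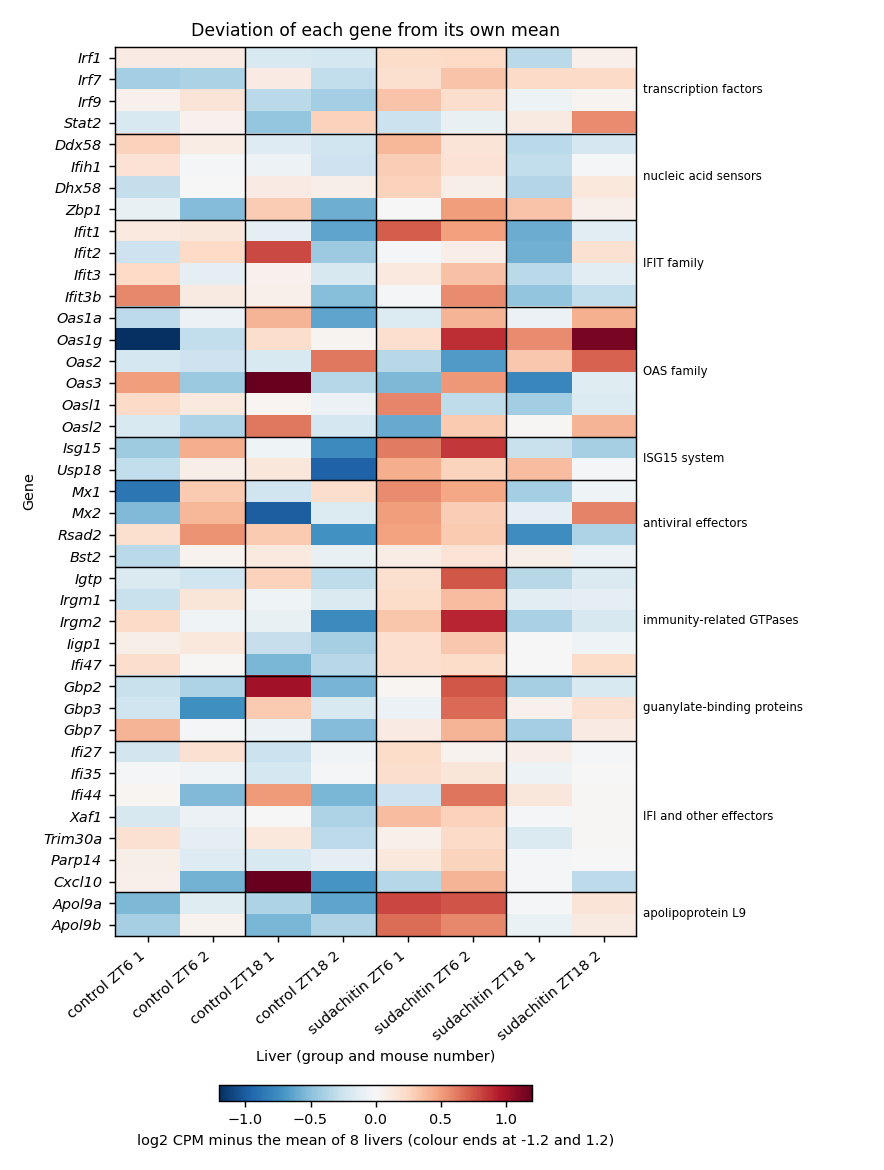
Log2 CPM of each gene minus its own mean over the 8 livers (colour), with genes in rows grouped by role and livers in columns. The 2 sudachitin ZT6 columns are mostly red, with 30 and 38 of 41 genes above their mean, and mouse 2 of control ZT18 is mostly blue, with 4 above.

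Sudachitin against control at ZT6 asks how treated livers differed from control livers in the day. Of the 41 members, 37 lay above 0 and 4 below, where 48.8% of all tested transcripts lay above 0. The median member was 0.26 higher on the log2 scale, against -0.01 over all 14506 transcripts, with a range of -0.26 to 1.56. In 22 members both treated livers exceeded both control livers (15.4% of all transcripts), and in 1, Oas2, both were lower (16.3%). No member passed the edgeR quasi-likelihood test at an adjusted p of 0.05 (0% of all transcripts passed), and the smallest adjusted p was 0.31. At an unadjusted p under 0.05, 6 members were higher (1.23% of all transcripts) and 0 lower (0.896%). DESeq2 called 1 member, Apol9a, of the 9 transcripts it called in all (0.062%).

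Apol9a and Apol9b encode apolipoprotein L9, a cytosolic lipid-binding protein with antiviral activity. Apol9a (chromosome 15, 77403789 to 77411135, minus strand, GRCm38) stood at 20.6 and 27.1 CPM in control ZT6 and at 52.1 and 50.5 CPM in sudachitin ZT6. Both treated livers were far above both controls and close to each other. The log2 difference was 1.10 ± 0.16 (SE), or 2.15-fold, with an adjusted p of 0.31 in edgeR and of 0.00041 in DESeq2. Apol9b (chromosome 15, 77729039 to 77736381, plus strand) stood at 53.6 and 72.5 CPM in control and at 112 and 105 CPM in treated livers of ZT6. The groups again did not overlap, with a log2 difference of 0.78 ± 0.16, or 1.72-fold, and an adjusted p of 1 in edgeR and 0.056 in DESeq2. The 2 copies are not independent measurements, since 28.1% of the 150-base windows of each transcript are identical in the other and the authors' counting may have split or shared those reads.

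Among the transcription factors, Irf7, the amplifier of interferon alpha and of its target genes, stood apart. It measured 17.7 and 18 CPM in control ZT6 and 26.9 and 29.7 CPM in sudachitin ZT6, so the groups did not overlap. Its log2 difference was 0.66 ± 0.15, with an unadjusted p of 0.0016 and an adjusted p of 1 (edgeR). Irf9, the DNA-binding part of the interferon complex, was at 27.2 and 29.2 CPM in control and 33.1 and 30.4 CPM in treated livers. Irf1, a factor strongly induced by interferon gamma, was at 24.5 CPM in both controls and at 26.7 and 27.0 CPM in treated livers. Both were higher in each treated liver, by a margin that did not pass the test. Stat2, which acts with IRF9 in that complex, was at 44.3 and 52.0 CPM in control and 41.9 and 47.2 CPM in treated livers, which overlapped.

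The immunity-related GTPases, which target vacuoles holding intracellular pathogens, were all above 0 (5 of 5). Of the 5, 4 did not overlap between the groups, where 15.4% of all transcripts did not overlap upward. Igtp was at 21.9 and 20.9 CPM in control and 28.2 and 41.4 CPM in treated livers, a log2 difference of 0.70 ± 0.23. Irgm1 was at 40.4 and 53.8 against 56.6 and 63.1 CPM (0.34 ± 0.15), and Irgm2 at 45.6 and 37.7 against 48.9 and 73.3 CPM (0.55 ± 0.25). In Igtp and Irgm2 mouse 2 of sudachitin ZT6 was much higher than mouse 1. The exons of Igtp and Irgm2 overlap by 162 bases on the same strand, so part of their reads cannot be assigned to one of them. Iigp1 was at 252 and 261 CPM in control and 275 and 301 CPM in treated livers, and Ifi47 at 17.7 and 15.5 against 17.6 and 17.9 CPM. The related guanylate-binding proteins, which coat such vacuoles, were above 0 in 3 of 3. Gbp3 was at 4.25 and 3.01 CPM in control and 4.79 and 8.05 CPM in treated livers, with a log2 difference of 0.82 ± 0.32. Gbp2 was at 2.66 and 2.48 against 3.26 and 5.39 CPM, and Gbp7 at 15.4 and 11.4 against 12.4 and 15.4 CPM, which overlapped.

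ISG15, a ubiquitin-like modifier, and USP18, the protease that removes it and damps interferon signalling, were both above 0. Isg15 measured 4.10 and 7.45 CPM in control and 8.48 and 9.89 CPM in treated livers, a log2 difference of 0.66 ± 0.32. Usp18 measured 3.60 and 4.64 against 5.96 and 5.32 CPM. In both genes each treated liver was above each control liver, and in neither did the difference pass the edgeR test. The IFIT proteins bind viral RNA ends. Of these, Ifit1 measured 7.92 and 8.04 CPM in control and 12.1 and 10.3 CPM in treated livers (0.49 ± 0.23), while Ifit2, Ifit3 and Ifit3b overlapped between the groups.

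The 4 nucleic acid sensors were all above 0 with small differences. Ddx58, which encodes the RNA sensor RIG-I, was at 24.8 and 21.7 CPM in control and 27.0 and 22.7 CPM in treated livers. Ifih1, the sensor MDA5, was at 31.2 and 27.3 against 33.8 and 31.2 CPM. Both overlapped between the groups. Dhx58, the sensor LGP2, was at 8.28 and 10.1 against 12.2 and 10.6 CPM, and Zbp1, a sensor of Z-form nucleic acid, at 3.17 and 2.35 against 3.38 and 4.77 CPM. Neither pair of groups overlapped, and neither passed the test.

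The OAS family lay on both sides of 0. Of its 6 members 4 lay above, with 1 not overlapping upward, Oas1g (15.4% of all transcripts), and 1 downward, Oas2 (16.3%). Oas1g rested on very few reads, from 0.072 and 0.392 CPM in control to 0.553 and 0.887 CPM in treated livers, and its lowest library held 1 count. Oas2 was at 1.80 and 1.76 CPM in control and 1.66 and 1.30 CPM in treated livers. Oas1a and Oas1g also share 31.7% and 30.1% of their 150-base windows with each other. Of the 7 remaining IFI and other effectors all were above 0 and 3 did not overlap (15.4% of all transcripts, upward). Among these 3 were Xaf1, a regulator of cell death, at 2.95 and 3.20 against 4.36 and 4.09 CPM (0.46 ± 0.23). Parp14, an ADP-ribosyltransferase, was another, at 28.4 and 24.2 against 29.4 and 32.4 CPM (0.23 ± 0.12). Of the antiviral effectors, Bst2 was at 105 and 135 CPM in control and 140 and 147 CPM in treated livers and Mx1 at 0.432 and 0.980 against 1.17 and 1.09 CPM, both without overlap. Rsad2, which encodes viperin, an enzyme that makes a chain-ending nucleotide, overlapped at 7.99 and 10.1 against 9.77 and 8.66 CPM, as did Mx2.

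**Figure D4:**
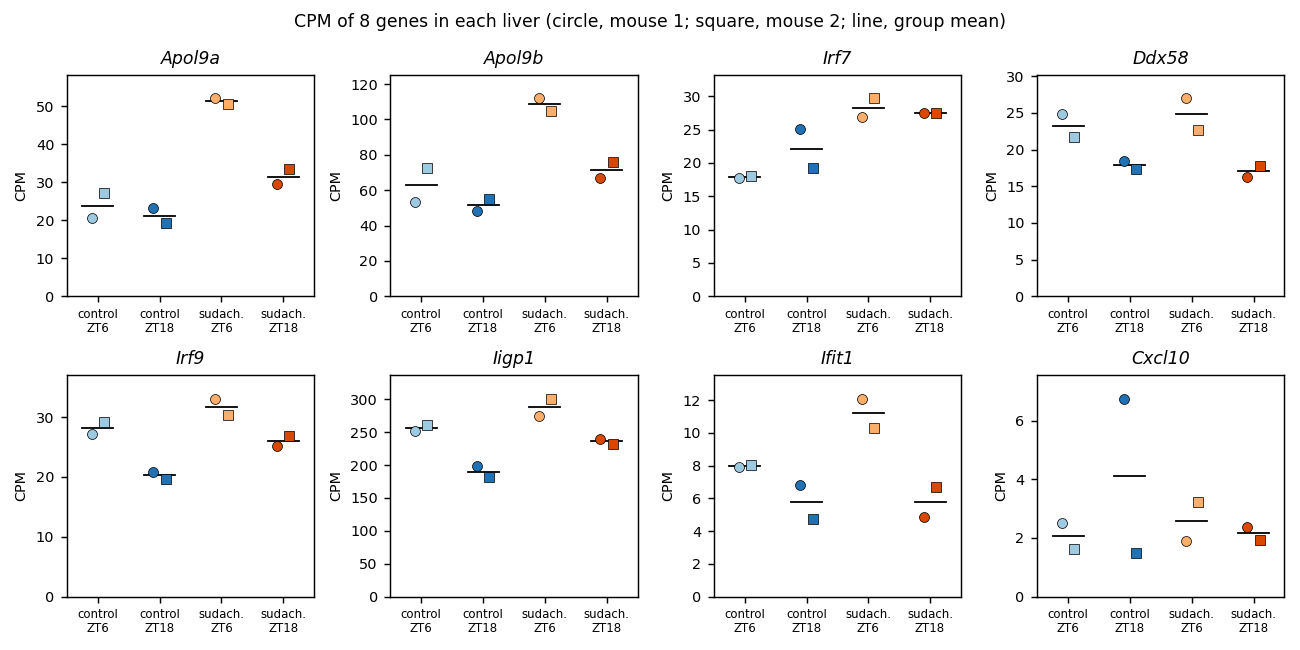
CPM of Apol9a, Apol9b, Irf7, Ddx58, Irf9, Iigp1, Ifit1 and Cxcl10 in each liver (circle, mouse 1; square, mouse 2; line, mean of the group of 2). Apol9a reaches 52.1 and 50.5 CPM in sudachitin ZT6 and at most 27.1 CPM in any control liver, and Cxcl10 reaches 6.75 CPM in 1 control ZT18 liver only.

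Markers of macrophages moved with this result. All 12 Kupffer cell and macrophage markers were above 0 at ZT6, with a median log2 difference of 0.64 and no marker passing the test. Of the 12, 10 did not overlap between the groups, where 15.4% of all transcripts did not overlap upward. Their summed level was 150 and 176 CPM in control ZT6, 201 and 315 CPM in sudachitin ZT6, 240 and 140 CPM in control ZT18 and 204 and 198 CPM in sudachitin ZT18. None of the 12 was at 0. The part of these cells in the result was not tested, and in bulk liver more cells of a type and more RNA per cell cannot be told apart. Without mouse 2 of sudachitin ZT6, the liver with the highest macrophage sum, 32 of 41 members lay above 0 with a median of 0.23, and without mouse 1 there were 36 with a median of 0.31. Markers of other blood cells were near 0: the 8 monocyte and neutrophil markers summed to 2.89 to 4.98 CPM, the 8 dendritic cell markers to 1.60 to 4.09 CPM and the 12 T and NK cell markers, of which Ncr1 was at 0 in every library, to 2.66 to 7.34 CPM. B and plasma cell markers summed to 3.63 to 9.84 CPM, cholangiocyte markers to 6.68 to 13.0, endothelial markers to 113 to 143 and stellate cell markers to 240 to 347 CPM. Acute phase genes, liver-made proteins of the systemic inflammatory response, were also above 0 in 20 of 20, with a median of 0.47. Of these, 16 did not overlap between the groups (15.4% of all transcripts, upward). Saa1, serum amyloid A, was at 21.9 and 18.3 CPM in control ZT6 and 599 and 306 CPM in sudachitin ZT6, with a log2 difference of 4.49 ± 0.84 and an adjusted p of 0.86 (edgeR). The part of the acute phase in the result was not tested either.

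The rest of the interferon pathway was followed at ZT6 from the ligand down. Of 21 interferon genes listed, 19, including Ifnb1 and all listed type I alpha and type III genes, had no count in any library, and Ifng and Ifnk stayed under 10 counts in every library. No ligand could be tested. Receptor and kinase genes showed no common direction, with 3 of 8 above 0 and a median of -0.04. Ifnar2 was at 54.0 and 52.0 CPM in control and 58.9 and 58.4 CPM in treated livers. Of the 10 signal transducers and inhibitors 7 were above 0 with a median of 0.02. Of the 10 genes of nucleic acid sensing 6 were above 0 with a median of 0.05.

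A further 42 interferon-stimulated genes that are not members gave a count like that of the members at ZT6. Of these 36 lay above 0 with a median of 0.27, 26 did not overlap upward and 1 downward, and none passed the test. Rtp4, a chaperone and interferon target, was at 10.4 and 12.2 CPM in control and 18.7 and 18.3 CPM in treated livers, a log2 difference of 0.70 ± 0.15. All 14 class I antigen presentation genes lay above 0, 9 without overlap (15.4% of all transcripts) and with a median of 0.18. All 5 class II genes did so as well, with a median of 0.74, and their summed level of 77.6 and 69.4 CPM in control ZT6 and 87.7 and 161 CPM in sudachitin ZT6 was again highest in mouse 2.

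Sudachitin against control at ZT18 asks the same of the night. Here 23 of 41 members lay above 0 (49.6% of all transcripts) and 18 below, with a median of 0.03 against 0.00 over all transcripts. In 10 members both treated livers exceeded both controls (15.3% of all transcripts) and in 1, Oasl1, both were lower (15.5%). No member passed in edgeR (0.0138% of all transcripts passed) or in DESeq2 (0.317%), and the smallest edgeR adjusted p was 0.65. At an unadjusted p under 0.05, 5 members were higher (3.45% of all transcripts) and 0 lower (3.07%). Those 5 were Ifi47, Apol9a, Irf9, Apol9b and Iigp1.

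Ifi47, an immunity-related GTPase, measured 10.5 and 12.2 CPM in control ZT18 and 15.4 and 17.9 CPM in sudachitin ZT18, a log2 difference of 0.56 ± 0.15. Apol9a measured 23.2 and 19.3 against 29.6 and 33.4 CPM (0.56 ± 0.16), and Apol9b 48.4 and 54.9 against 66.8 and 75.9 CPM (0.47 ± 0.16). Both Apol9 copies were thus higher in each treated liver at night as well. Irf9 measured 20.9 and 19.7 against 25.1 and 26.8 CPM (0.35 ± 0.12), Iigp1 198 and 182 against 240 and 232 CPM (0.31 ± 0.12), and Irf7 25.1 and 19.2 against 27.5 CPM in both treated livers (0.31 ± 0.14). Mx2, an antiviral GTPase, measured 1.62 and 2.88 against 2.96 and 4.87 CPM. None of these groups overlapped.

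The 2 control livers of the night disagreed over the members. Mouse 1 was higher than mouse 2 in 32 of 41 members, by a median of 0.26 on the log2 scale, and 7 members differed by more than 2-fold, where 8.29% of all transcripts did. Cxcl10, a chemokine that draws T cells, was at 6.75 and 1.48 CPM, Gbp2 at 6.47 and 2.18 CPM and Usp18 at 4.85 and 2.25 CPM in mice 1 and 2. In mouse 1 Cxcl10 was at its highest level of all 8 livers. Without that mouse, 33 of 41 members lay above 0 at ZT18 with a median of 0.29, and without mouse 2 there were 17 with a median of -0.11. Cxcl10 went from a log2 difference of -0.95 ± 0.60 to 0.55 without mouse 1, and Gbp2 from -0.74 ± 0.47 to 0.27. The treated livers of the night also disagreed, with mouse 2 higher than mouse 1 in 33 of 41 members. Without mouse 2 of sudachitin ZT18, 19 members lay above 0 and 22 below, with a median of -0.03, and without mouse 1 there were 27 above, with a median of 0.12. The direction of the members at night therefore rests on single livers of both groups. Macrophage markers lay above 0 in 6 of 12, with a median of 0.03, and their sum differed between the control mice, at 240 and 140 CPM. Acute phase genes lay above 0 in 14 of 20, with a median of 0.25, and their part in the result was not tested.

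**Figure D5:**
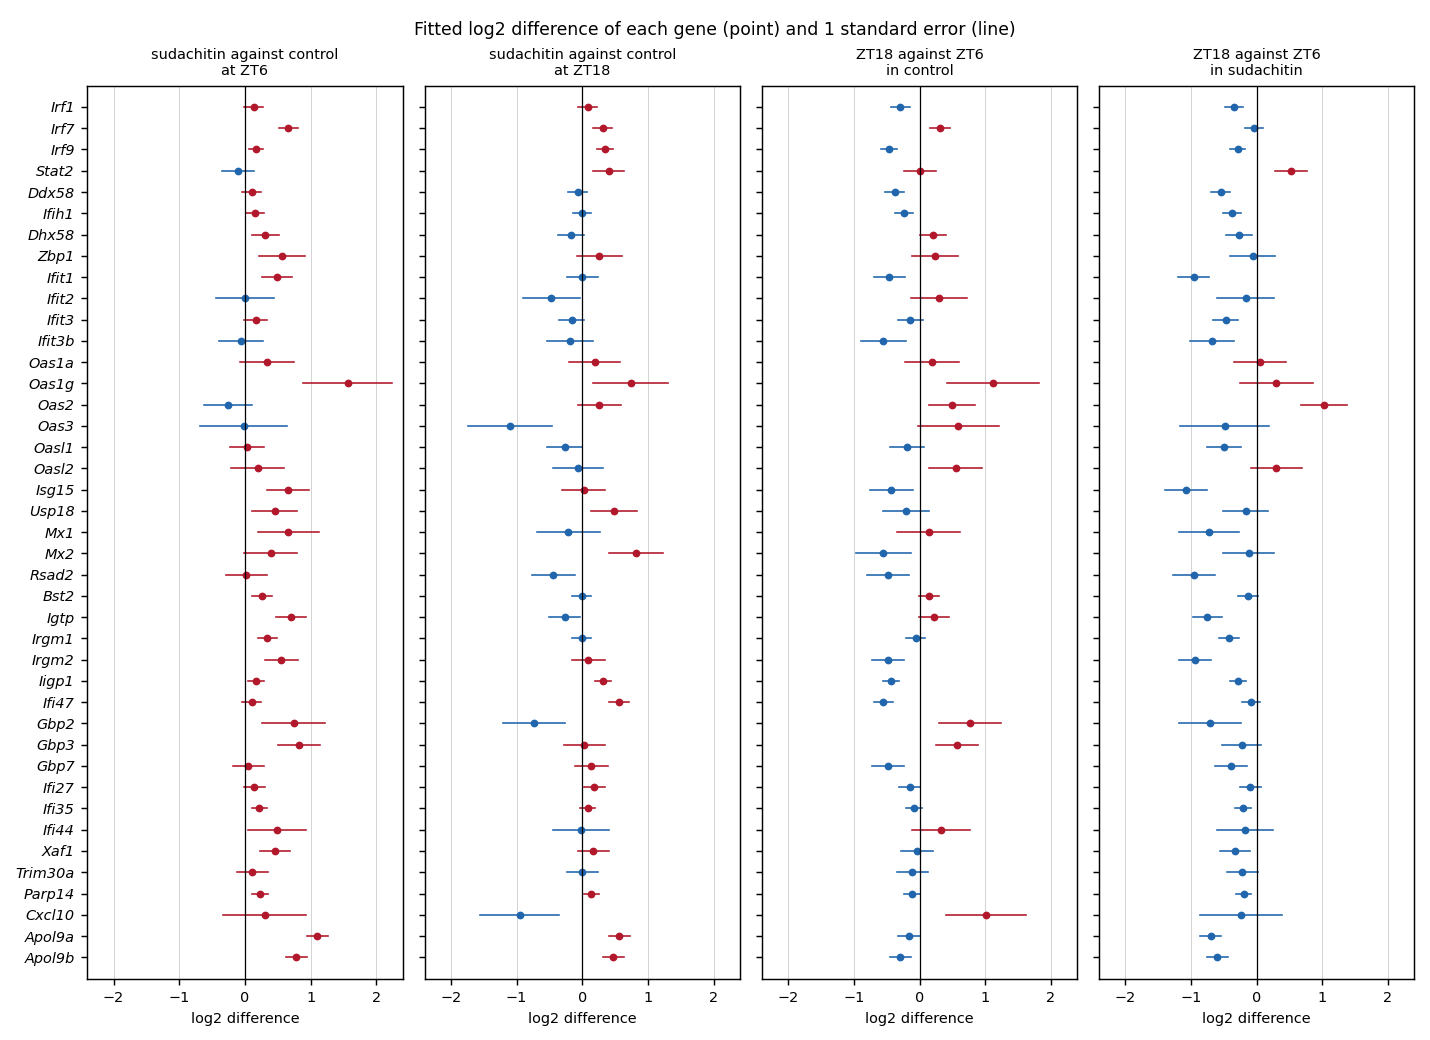
Fitted log2 difference (point) and 1 standard error (line) of each of the 41 genes in the 4 pairwise comparisons, red above 0 and blue below. Of the 41, 37 lie above 0 for sudachitin against control at ZT6, 23 at ZT18, 17 for ZT18 against ZT6 in control livers and 5 in sudachitin livers.

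ZT18 against ZT6 in control livers asks how the members differed between night and day without the compound. Of the 41, 17 lay above 0 (52.8% of all transcripts) and 24 below, with a median of -0.11 against 0.02 over all transcripts. In 11 members both night livers were lower (21.1% of all transcripts) and in 5 both were higher (21.3%). None passed in edgeR (0.524% of all transcripts passed) or DESeq2 (2.15% of the 12256 transcripts to which it gave an adjusted p, with 3 members given none), with a smallest edgeR adjusted p of 0.16, and at an unadjusted p under 0.05 there were 4 lower (6.31%) and 0 higher (6.6%). Irf9 went from 27.2 and 29.2 CPM in the day to 20.9 and 19.7 CPM in the night, a log2 difference of -0.47 ± 0.12. Ifi47 (-0.55 ± 0.15), Iigp1 (-0.43 ± 0.12) and Ddx58 (-0.38 ± 0.14) were the others. Irf7 lay the other way, at 17.7 and 18 CPM in the day and 25.1 and 19.2 CPM in the night (0.31 ± 0.15). The direction turned on single livers. Without mouse 2 of control ZT6, 22 members lay above 0 and 19 below, with a median of 0.02. Without mouse 2 of control ZT18 the median was -0.03, with 19 above, and without mouse 1 it was -0.30, with 31 below. The 42 further interferon-stimulated genes went the other way, with 25 above 0, 17 below and a median of 0.06. Acute phase genes lay above 0 in 10 of 20, with a median of 0.03. Macrophage markers lay above 0 in 9 of 12, with a median of 0.30, and class II genes in 5 of 5, with a median of 0.86. Their part in the result was not tested.

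In sudachitin livers the same comparison gave more members below 0. Of the 41, 36 lay below 0 and 5 above, where 50.9% of all transcripts lay above, with a median of -0.29 against 0.01 over all transcripts. In 22 members both night livers were lower than both day livers (22.3% of all transcripts), and in 2, Oas2 and Stat2, both were higher (23.5%). None passed in edgeR (0.186% of all transcripts passed), with a smallest adjusted p of 0.13, while 14 were lower at an unadjusted p under 0.05 (5.55%) and 1 higher (7.1%). DESeq2 called 2 members, Apol9a and Irgm2, with adjusted p of 0.035 and 0.015, where 2.09% of the 13099 transcripts with an adjusted p passed, and 3 members were given none. This comparison and the one of treatment at ZT6 share the sudachitin ZT6 livers, so their values are set side by side and not counted as separate evidence.

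Apol9a went from 52.1 and 50.5 CPM in the day to 29.6 and 33.4 CPM in the night (-0.70 ± 0.16), and Apol9b from 112 and 105 to 66.8 and 75.9 CPM (-0.60 ± 0.16). Ifit1 went from 12.1 and 10.3 to 4.86 and 6.69 CPM (-0.96 ± 0.24), Isg15 from 8.48 and 9.89 to 4.56 and 4.17 CPM (-1.07 ± 0.32), and Rsad2 from 9.77 and 8.66 to 4.15 and 5.40 CPM (-0.95 ± 0.32). In each of these 5 genes both night livers were lower. Irgm2 went from 48.9 and 73.3 to 29.7 and 33.9 CPM (-0.94 ± 0.25), Igtp from 28.2 and 41.4 to 19.5 and 21.8 CPM (-0.75 ± 0.22) and Irgm1 from 56.6 and 63.1 to 44.3 and 45.2 CPM (-0.42 ± 0.15). These 3 GTPases were lower in both night livers, as was Iigp1, while Ifi47 overlapped at 17.6 and 17.9 CPM in the day and 15.4 and 17.9 CPM in the night. Oas2 lay the other way, at 1.66 and 1.30 CPM in the day and 2.61 and 3.41 CPM in the night (1.02 ± 0.35). Of the 42 further interferon-stimulated genes, 28 lay below 0 and 14 above, with a median of -0.12. Macrophage markers were below 0 in 11 of 12, with a median of -0.23. Acute phase genes were below 0 in 18 of 20, with a median of -0.28. The part of both in the result was not tested.

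The interaction asks whether the difference between treated and control livers was the same at both times, which also differ in hours since gavage. Of the 41 members, 32 lay below 0 and 9 above (49.5% of all transcripts), with a median of -0.30, meaning a treated-to-control difference that was less positive at night. None passed in edgeR (0% of all transcripts passed) or DESeq2 (0.103% of the 11693 transcripts with an adjusted p, with 3 members given none), and every member had an edgeR adjusted p of 1. At an unadjusted p under 0.05, 2 were lower (1.62%) and 0 higher (2.16%). These were Igtp (-0.97 ± 0.32, unadjusted p of 0.014) and Apol9a (-0.54 ± 0.22, unadjusted p of 0.041). A different response by day and by night was therefore not shown for any member. Without mouse 1 of control ZT18 the median was -0.07, with 24 members below 0, and without mouse 2 it was -0.45. Acute phase genes lay below 0 in 13 of 20, with a median of -0.24. Macrophage markers lay below 0 in 11 of 12, with a median of -0.61, and class II genes in 5 of 5, with a median of -0.73. Their part in the result was not tested.

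Over both times, sudachitin against control gave 34 of 41 members above 0 (49.7% of all transcripts), with a median of 0.17. Acute phase genes lay above 0 in 19 of 20, with a median of 0.28, and their part was not tested. Macrophage markers lay above 0 in 11 of 12, with a median of 0.36 and 5 at an unadjusted p under 0.05, and their part in the result was not tested. In 2 members all 4 treated livers exceeded all 4 controls (0.958% of all transcripts), Apol9a and Irf7, and in 0 all 4 were lower (0.869%). In Apol9a the lowest treated liver was at 29.6 CPM and the highest control at 27.1 CPM, and in Irf7 these were 26.9 and 25.1 CPM. None passed in edgeR (0.0207% of all transcripts passed), while 8 members were higher at an unadjusted p under 0.05 (2.14%) and 0 lower (2.27%). The log2 difference was 0.84 ± 0.14 for Apol9a (adjusted p of 0.39 in edgeR and 0.00022 in DESeq2), 0.62 ± 0.12 for Apol9b (0.73 in edgeR and 0.004 in DESeq2) and 0.48 ± 0.11 for Irf7 (1 in edgeR and 0.21 in DESeq2). DESeq2 called Apol9a and Apol9b and none of the other members it assessed, where 0.123% of the 10568 transcripts with an adjusted p passed, and 10 members were given none.

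Over both treatments, ZT18 against ZT6 was the 1 comparison in which members passed the edgeR test. Ddx58, Irf9 and Iigp1 fell from day to night and none rose, where 1.82% of all transcripts fell and 3.68% changed in either direction. Ddx58 (chromosome 4, 40204849 to 40239828, minus strand) measured 24.8 and 21.7 CPM in control ZT6 and 27.0 and 22.7 CPM in sudachitin ZT6, and 18.4 and 17.3 CPM in control ZT18 and 16.3 and 17.8 CPM in sudachitin ZT18. All 4 night livers were below all 4 day livers, and it fell by 0.46 ± 0.10 on the log2 scale (edgeR adjusted p of 0.034). Irf9 (chromosome 14, 55603985 to 55610030, plus strand) ranged from 27.2 to 33.1 CPM in the day and 19.7 to 26.8 CPM in the night, and fell by 0.38 ± 0.08 (adjusted p of 0.037, edgeR). Iigp1 ranged from 252 to 301 CPM in the day and 182 to 240 CPM in the night, and fell by 0.36 ± 0.08 (adjusted p of 0.043, edgeR). Ifit1 (-0.71 ± 0.18, adjusted p of 0.063 in edgeR) and Irgm2 (-0.71 ± 0.19, adjusted p of 0.072 in edgeR) did not pass.

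In all, 27 of 41 members lay below 0 over both treatments and 14 above (52.7% of all transcripts), with a median of -0.19, and 15 were lower (9.75% of all transcripts) and 1 higher (10.6%) at an unadjusted p under 0.05. The livers of day and night did not overlap in 7 lower members (7.02% of all transcripts), Ddx58, Irf9, Iigp1, Ifit1, Irgm2, Irf1 and Ifih1, and in 1 higher member, Oas2 (5.99%). The 3 calls depended on single livers. With mouse 1 of control ZT18 left out, 9 members were called, these 3 among them and 1, Oas2, higher, and the calls over all transcripts went from 534 of 14506 to 1048 of 15003. Irf9 alone of these 3 kept its call with mouse 2 of sudachitin ZT18 left out. With any of the other 6 livers left out these 3 calls were lost. Calls over all transcripts fell in each of these settings too, so the loss was not particular to the members. DESeq2 called 8 members, all lower, where 7.25% of the 13099 transcripts to which it gave an adjusted p passed in either direction. The 42 further interferon-stimulated genes showed no such fall, with 23 below 0, 19 above and a median of -0.01. At an unadjusted p under 0.05 (edgeR), 8 of them were lower and 6 higher. Acute phase genes lay below 0 in 13 of 20, with a median of -0.24. Among the other pathway genes, Ikbke, a kinase upstream of interferon production (-0.78 ± 0.16, adjusted p of 0.033), and Tap1, a peptide transporter of class I presentation (-0.51 ± 0.09, adjusted p of 0.020), also fell, and Ifi203 rose (0.76 ± 0.14, adjusted p of 0.021), all in edgeR.

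The promoter letters were set beside the differences. At ZT6, 19 of the 22 members with the ISRE core lay above 0 for sudachitin against control, with a median of 0.32, and 10 of the 10 without it did, with a median of 0.18. From day to night in sudachitin livers, 19 of 22 with the core lay below 0, with a median of -0.48, and 9 of 10 without it, with a median of -0.20. No test was made of these splits.

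The remaining members are accounted for by their ranges over the 8 livers. Ifit3 ranged from 8.24 to 13.2 CPM, Ifit2 from 1.60 to 4.13 CPM and Ifit3b from 1.62 to 3.45 CPM. Among the OAS genes, Oasl1 ranged from 8.77 to 17.6 CPM, with both ends in treated livers, Oasl2 from 1.66 to 3.91 CPM, Oas1a from 1.33 to 2.73 CPM and Oas3 from 0.415 to 1.67 CPM. Ifi27 ranged from 56.6 to 78.9 CPM, Trim30a, a TRIM-family regulator of inflammatory signalling, from 3.37 to 4.91 CPM and Ifi44 from 1.55 to 3.55 CPM. Ifi35 was the steadiest of the 41, from 17.9 to 24.0 CPM, a ratio of 1.34 between its highest and lowest liver. Cxcl10 had a ratio of 4.58, and both of its ends were control ZT18 livers.

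Some member counts carry a doubt of their own. Ifit3 and Ifit3b share 18.5% and 16% of their 150-base windows. Exons overlapped another gene's exons on the opposite strand in Dhx58, Gbp2, Ifi35, Oasl1 and Usp18, and on the same strand in Gbp7, Ifi47, Igtp, Irgm2 and Parp14. The libraries do not mark strand, so reads of overlapping genes cannot be told apart. The longest such overlap was 637 bases, between Gbp7 and a predicted gene.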

How the data were processed

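Bulk liver RNA of 4 groups of 2 mice was sequenced as poly(A)-selected libraries without strand information, from 2 µg of RNA with an integrity number above 9.0 and as 150-base read pairs, per the labels' protocols. Groups and mouse numbers came from the sample titles, whose codes are not explained in the labels. The submitters' processing notes name Trimmomatic 0.39, STAR 2.7.2a, HOMER (with no version) and build GRCm38 (mm10), without their roles. The first table deposited by the authors has 1 transcript per row and gives estimated counts over exons, per the file headers; they move in steps of 0.5 and carry no normalization. The authors also deposited FPKM, which differed by at most 4e-11 from the count divided by exon length and by the library total in the header. Counts in exons were 43.57% to 47.77% of those totals, and 0 rows lacked a symbol. Neither labels nor headers say how strand and reads with several positions were handled.

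Counts ending in 0.5 (19.69% to 21.89% of values) were rounded up. The main test was the edgeR 4.0.16 quasi-likelihood F test in R 4.3.3, with TMM factors (0.966 to 1.016) and the filterByExpr default by group as filter. It was fitted over all 8 libraries with 4 group means, and with additive effects of treatment and time for the comparisons over both levels. The Benjamini-Hochberg adjustment ran over all 14506 tested transcripts, and a call is an adjusted p under 0.05. The SE is the log2 difference divided by the square root of F. CPM values are scaled by TMM. Within every group the pair of libraries differed by more than counting noise, at 16.0 to 53.7 chi-square units per degree of freedom.

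The members and all lists were chosen with earlier results of these data known, so their directions are described and not tested as sets. Fitted values are given for up to 12 members with the smallest p in each pairwise comparison and up to 5 in the others, and for up to 3 genes of each pathway list; members given by level only were taken to cover each role. One gene of a pathway list is not reported here. Alternatives were DESeq2 1.42.0, median-of-ratios factors, total counts, no filter, a stricter filter (5 CPM or more in 2 libraries), the compared groups alone, the replicate number as a block and leaving out each liver. Exon overlaps and 150-base windows were computed from GENCODE mouse release M21, where 40 of the 41 member transcripts had the same coordinates.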

Additional observations from a re-analysis of the deposited data

How the results depend on the processing

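With 2 mice a group, the 4 pairwise comparisons and the interaction called 0 members in edgeR. The fit of 4 group means leaves 4 residual degrees of freedom, and the quasi-likelihood test also draws on the spread of the other transcripts. DESeq2 called 1 member for sudachitin against control at ZT6, 2 for ZT18 against ZT6 in sudachitin, 2 for sudachitin over both times and 8 for ZT18 against ZT6 over both treatments. With no filter on low counts, edgeR called 3 members for sudachitin at ZT6, 1 for ZT18 against ZT6 in control, 7 for it in sudachitin, 1 for the interaction, 3 for sudachitin over both times and 11 for time over both treatments. Calls over all 28464 transcripts then tested also went up, to 67, 881, 861, 259, 309 and 1629 in the same order, from 0, 76, 27, 0, 3 and 534 of 14506. With 1 liver left out at a time, a lone liver being assumed to vary like the other groups, the calls for time over both treatments ranged from 0 to 9 around 3. The members' median log2 difference then ranged from -0.11 to 0.29 for sudachitin at ZT18, from -0.30 to 0.02 for ZT18 against ZT6 in control, from -0.44 to -0.25 for it in sudachitin, from -0.45 to -0.07 for the interaction and from -0.34 to -0.15 for time over both treatments. Cxcl10 ranged from -1.65 to 0.55 and Gbp2 from -1.30 to 0.27 at ZT18, and both reversed without mouse 1 of control ZT18. These were the 2 reversals among 923 alternatives of 63 named values, of which 874 kept direction and side of the threshold. The named values were picked for the smallest p in these data, and only Ddx58, Irf9 and Iigp1 were called. This tally therefore cannot show how stable the members are. The replicate block left 1 call, Ddx58, for time over both treatments. Same-numbered mice share only a number, with correlations of their deviations from -0.20 to 0.28. Causes of these shifts were not tested. The median over all transcripts moved by at most 0.05 in any setting.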
